A study of Macaca mulatta with 18 samples.

Results

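The vastus lateralis of middle-aged male rhesus monkeys was compared with that of young males, using the 12 arrays of these 2 ages among the 18 of the monkey experiment. The 6 middle-aged animals were 16.48 ± 0.31 years old and the 6 young animals 6.00 ± 0.00 years old (SEM, n = 6 each). PECR, a peroxisomal enzyme of fatty acid metabolism, and PBX3, a homeobox factor, were lower in middle-aged muscle past the threshold of the test, and no gene was higher past it. The call of PBX3 was lost under another normalization of the arrays. The remaining 6 arrays came from old males (26.83 ± 0.22 years, SEM), which entered the same fit and shared its estimate of the spread. The muscle was taken by biopsy from monkeys in ongoing National Institute on Aging studies, which were fed standard chow, and was flash frozen. What treatment those studies gave, if any, is not given in the sources used here. Each animal gave 1 array, so a p-value measures the spread between animals of an age.

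The vastus lateralis is a thigh muscle of mixed slow and fast fibres and is a standard site of biopsy. In rhesus monkeys, as in humans, loss of thigh muscle is known to begin in middle age, before frailty is apparent. A biopsy holds multinucleated muscle fibres together with fibroblasts, vessels, fat, blood and resident immune cells. In such bulk RNA, fewer cells of a type and less RNA per cell cannot be told apart. Labelled RNA was read on Sentrix Human HT-12 arrays, whose probes were designed on human transcripts, so how bright a probe is depends on how well the monkey RNA fits it as well as on how much RNA there is. Levels of different genes were therefore not set against each other. Muscle fibre markers were bright at both ages. ACTA1, the actin of skeletal muscle, had a normalised intensity of 12890 to 29970 in middle-aged animals and 12100 to 21740 in young animals, and CKM, the muscle creatine kinase, had 20780 to 35090 in middle-aged and 14870 to 25400 in young animals.

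Probe intensities were converted to Z scores within each array, on the natural log, and put on a log2 scale. A normalised intensity is this level turned back to a linear scale, and a log2 fold change is middle-aged over young. Of 47323 probes, 14188 had a detection p under 0.05 on 6 or more arrays and are called detected. Each gene was read from its brightest detected probe, which gave 8589 genes. Middle-aged arrays had a narrower spread of intensities than young arrays. The SD of the natural log intensity averaged 0.788 ± 0.040 on middle-aged arrays and 0.836 ± 0.020 on young arrays (SD, n = 6 each, exact two-sided permutation test, p = 0.00866, adjusted p = 0.026 over 3 measures of the arrays). The Z score divides by this SD, so each gene was also compared after quantile normalization, which makes the distributions equal. Young replicate 6 stood apart from its group, with a mean correlation of 0.931 with the other arrays, against 0.962 to 0.967 for the other young arrays. Its mean level of fibroblast and matrix genes was 1.38 log2 units above the mean of all animals, whereas middle-aged animals lay at -0.75 to 0.17 and the other young animals at -0.43 to 0.29, and lists that rest on it are given without it too.

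**Figure D1:**
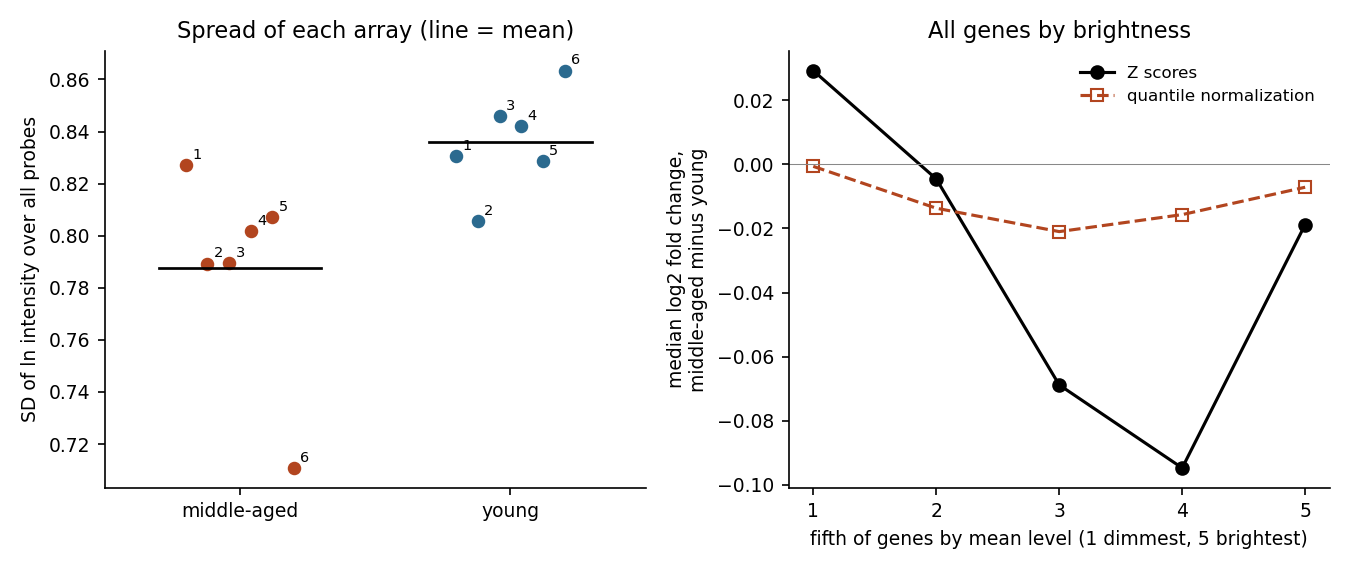
Left, SD over all probes of the natural log intensity of each array for middle-aged (left) and young animals, with 1 numbered point per animal and a line at the mean. Right, median log2 fold change, middle-aged over young, in 5 equal groups of the 8589 genes from the dimmest to the brightest, from Z scores and from quantile-normalised intensities. Middle-aged arrays lay between 0.711 and 0.827 and young arrays between 0.806 and 0.863, and the medians from Z scores ranged from -0.095 to 0.03, against -0.021 to -0.0007 after quantile normalization.

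At a threshold of 0.05, limma with Benjamini-Hochberg adjustment over the 8589 genes called 2 genes (0.0233%), both lower in middle-aged muscle, and 0 genes higher. After quantile normalization it called 1 gene lower (0.0116%) and 0 higher. Without adjustment, 954 genes had a p under 0.05 (11.1%), with 361 on the higher side (4.2%) and 593 on the lower side (6.9%). After quantile normalization these were 371 (4.32%) and 435 (5.06%). The median gene differed by -0.03 log2 units in the Z scores, where 43.3% of genes lay above 0 and 56.7% below, and by -0.01 after quantile normalization, where 47.0% lay above 0. The 6 middle-aged values did not overlap the 6 young values in 70 genes (0.815%), of which 19 were higher (0.221%) and 51 lower (0.594%). After quantile normalization the same count was 16 genes higher (0.186%) and 37 lower (0.431%). In the same fit, 8 genes (0.0931%) were called between old and young, and 56 (0.652%) between old and middle-aged. These comparisons share arrays and are not independent of each other.

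**Figure D2:**
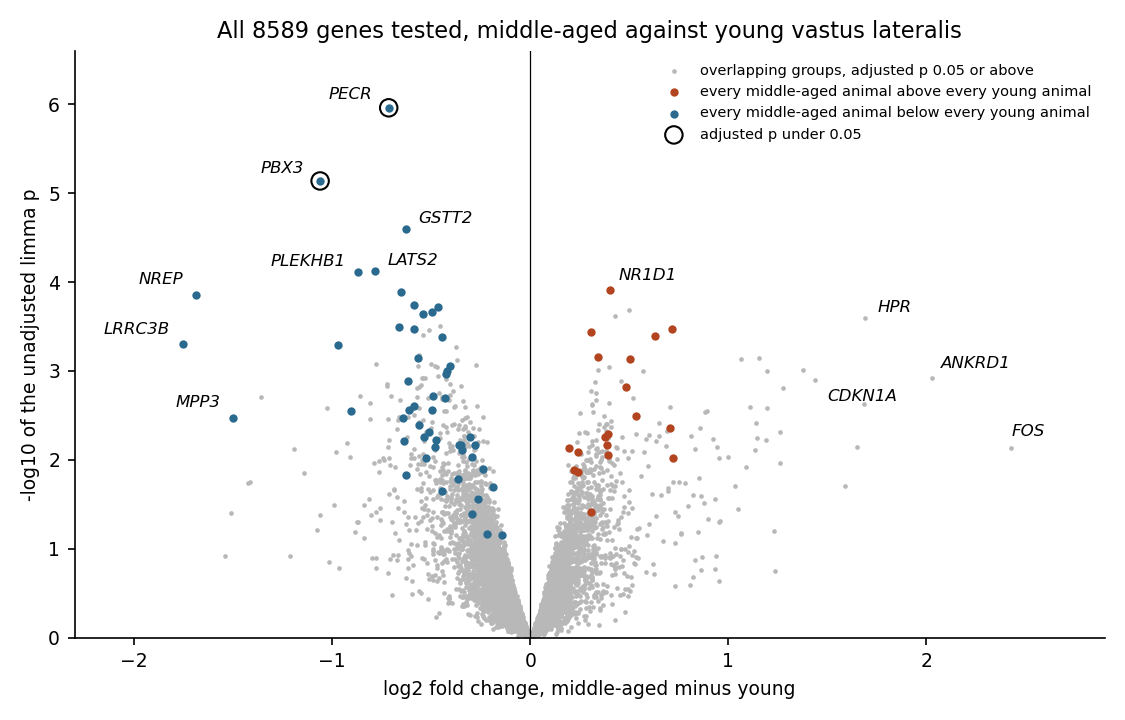
Log2 fold change, middle-aged over young (horizontal), against -log10 of the unadjusted p-value (vertical) for 8589 genes in the limma fit of the Z scores, with 1 point per gene and colour for genes whose ages do not overlap. PECR and PBX3, both left of 0, are the 2 genes past an adjusted p of 0.05, and the labelled genes right of 0 stayed above that threshold.

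PECR, the peroxisomal trans-2-enoyl-CoA reductase that acts in the elongation of fatty acid chains, fell in middle-aged muscle to 0.609 of the young level. The normalised intensities of PECR were 408.6, 315.1, 311.8, 305.0, 345.7 and 260.6 in middle-aged animals, against 460.8, 539.6, 532.0, 512.0, 597.1 and 532.8 in young animals. Every middle-aged animal was below every young animal, and the gene was detected on all 12 arrays. The log2 fold change of PECR was -0.71 (SE 0.10, 95% confidence interval -0.93 to -0.50, limma adjusted p = 0.00947), and -0.63 after quantile normalization (adjusted p = 0.0185). PECR stayed past the threshold when any one of the 12 animals was left out of the Z score fit, and in 4 of the 12 such fits after quantile normalization, those without middle-aged replicate 1 or 2 or young replicate 1 or 6. In old animals, the level of PECR ranged from 368 to 483, which overlapped the middle-aged range, and its difference from young did not pass (log2 fold change -0.37, adjusted p = 0.155).

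PBX3, a homeobox transcription factor that binds DNA together with HOX and MEIS proteins, fell to 0.479 of the young level. The normalised intensity of PBX3 was 182 to 425 in middle-aged animals (median 273), against 455 to 687 in young animals (median 595), with no overlap. Its log2 fold change was -1.06 (SE 0.17, 95% confidence interval -1.42 to -0.70, adjusted p = 0.0314). This call was lost after quantile normalization (log2 fold change -0.98, adjusted p = 0.0965), and of the 12 fits that left out 1 animal it held in 4, those without middle-aged replicate 2, middle-aged replicate 6, young replicate 5 or young replicate 6, with adjusted p from 0.0063 to 0.135 over the 12. Old animals had PBX3 levels of 311 to 507 (median 350). The other 5 measured genes of the list of PBX, MEIS and related homeobox factors lay between -0.17 and 0.20 on the log2 scale. PKNOX1 stood at -0.17, PKNOX2 at -0.09, PBX2 at 0.02, MEIS1 at 0.07 and TGIF1 at 0.20, and none passed.

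**Figure D3:**
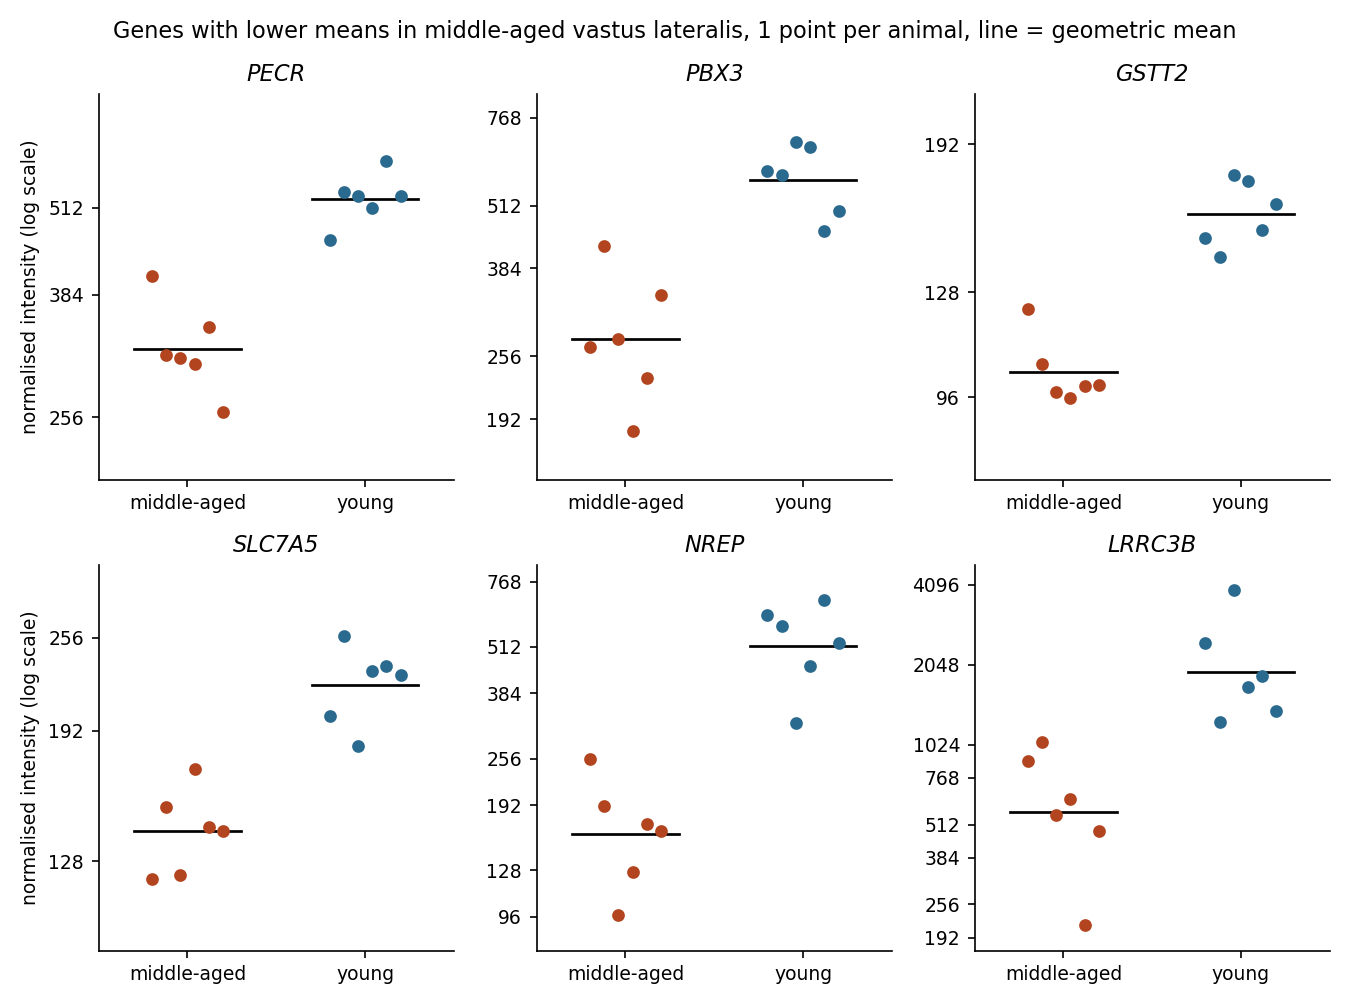
Normalised intensity (log axis) of PECR, PBX3, GSTT2, SLC7A5, NREP and LRRC3B in each middle-aged (left) and young animal, with a line at the geometric mean. Middle-aged values lay below all young values in the 6 genes, and the difference of PECR and PBX3 passed the threshold in the fit of the Z scores.

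The other 8 of the 10 lower genes with the smallest p had adjusted p from 0.0725 to 0.145 and did not pass. Their middle-aged and young values did not overlap, as in 0.594% of all genes on the lower side. Genes picked for a small p from the same values tend not to overlap, so this adds no support. GSTT2, a glutathione transferase of the theta class, had 95.7 to 122 in middle-aged animals (median 99.1), against 141 to 177 in young animals (median 157), and was detected on 1 middle-aged array and on 6 young arrays. Its log2 fold change was -0.63 (SE 0.11, adjusted p = 0.0725), and it passed without middle-aged replicate 1 (adjusted p = 0.0449). When every detected probe was tested instead of 1 per gene, 3 of 14188 probes were lower (0.0211%), the probes of PECR and PBX3 and one of GSTT2B, the near-identical copy of GSTT2. That GSTT2B probe had 48.6 to 83.9 in middle-aged animals and 104.5 to 137.6 in young animals (adjusted p = 0.0127), and was detected on 0 middle-aged and 5 young arrays. It thus entered the test only through the other ages, where it was higher, so its p describes a probe chosen in that way. The brighter GSTT2B probe differed by 0.10 log2 units (adjusted p = 0.82). Probes of these copies can share targets, so which copy each measured is uncertain. Of the 3696 detected probes with no gene symbol, 0 were called (limma).

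SLC7A5, the transporter that carries leucine and other large neutral amino acids into cells, had 121 to 171 in middle-aged animals (median 142), against 183 to 257 in young animals (median 230), with a log2 fold change of -0.65 (SE 0.14, adjusted p = 0.145). Its median in old animals was 147, and the difference of old from young passed (-0.74, adjusted p = 0.0467). EIF2B3, a subunit of the exchange factor that recharges eIF2 for translation initiation, had 174 to 222 in middle-aged and 238 to 288 in young animals (-0.47, SE 0.10, adjusted p = 0.145). LATS2, a kinase of the Hippo pathway that restrains YAP and TAZ, had 86.0 to 116 in middle-aged and 147 to 234 in young animals (-0.78, SE 0.15, adjusted p = 0.132), and was detected on 4 middle-aged and 6 young arrays. AKT1, a central kinase of insulin signalling, had 521 to 686 in middle-aged animals and 762 to 955 in young animals, again without overlap (-0.42, SE 0.11, adjusted p = 0.185), and a second probe of AKT1 gave -0.26. Over the list of insulin and mTOR signalling genes, 10 of 24 members were above 0 and 14 below, with a median of -0.05, next to the all-gene median of -0.03.

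A difference of over 2-fold without overlap was found in 4 genes, PBX3 among them. NREP, a small protein first described in neurons and in wound repair (P311), had 97.3 to 256 in middle-aged animals (median 167), 320 to 683 in young animals (median 554) and a median of 195 in old animals. Its log2 fold change was -1.69 (SE 0.35, adjusted p = 0.145), and it was detected on 5 middle-aged and 6 young arrays. LRRC3B, a leucine-rich repeat membrane protein, had 215 to 1050 in middle-aged and 1245 to 3897 in young animals (-1.76, SE 0.42, adjusted p = 0.167), and its second probe gave -1.56, with overlap. MPP3, a scaffold protein of the MAGUK family, had 95.0 to 144 in middle-aged animals (median 111), against 235 to 805 in young animals (median 261), where the highest value belonged to young replicate 1 (-1.50, SE 0.45, adjusted p = 0.238). It was detected on 4 middle-aged and 6 young arrays. None of the last 3 passed.

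Among the other lower genes, PLEKHB1, a protein with a pleckstrin homology domain, was detected on 0 middle-aged arrays and on 6 young arrays. It would not have entered the test without the young arrays, where it was high, so its bound and p describe a gene chosen in that way. It was at least 1.60-fold lower in middle-aged muscle (85.8 to 101 in middle-aged animals, 139 to 234 in young animals, adjusted p = 0.132). In this and the other bounds, the mean of the brighter group was set against, for each array of the dimmer group, the higher of the probe's own signal and the lowest signal among detected probes. A bound thus compares the means of these animals and is not a confidence limit. The words at least refer to the signal floor, and the spread between animals does not enter. TRAPPC12, a part of a vesicle tethering complex, had 261 to 347 in middle-aged and 364 to 574 in young animals (adjusted p = 0.145), and PIGP, which acts in the first step of GPI anchor synthesis, had 207 to 276 in middle-aged and 311 to 424 in young animals (adjusted p = 0.145). PTS, an enzyme of tetrahydrobiopterin synthesis, had 118 to 224 in middle-aged and 257 to 591 in young animals (-0.97, SE 0.23, adjusted p = 0.167). CX3CR1, the fractalkine receptor of monocytes and macrophages, was chosen after its values were seen. It had 77.4 to 113 in middle-aged animals and 145 to 232 in young animals without overlap (-0.91, SE 0.26, adjusted p = 0.22), and was detected on 1 middle-aged and 6 young arrays. It, too, would not have entered the test without the young arrays, where it was high. Its second detected probe gave -0.17, with overlap, so the difference belongs to 1 probe.

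The peroxisomal list, to which PECR belongs, lay mostly below 0. Of 43 listed enzymes and peroxins 23 were measured, and 4 were above 0 and 19 below, with 6 lower and 0 higher at an unadjusted p under 0.05. Over all genes, that p was reached by 6.9% in the lower direction. The median of the list was -0.14 (-0.12 after quantile normalization), beside -0.03 over all genes, and it stayed negative in all 15 settings tried. PECR was the 1 member that passed. ACOX2, the peroxisomal oxidase that shortens bile acid intermediates and branched fatty acids, had 230 to 330 in middle-aged animals and 340 to 529 in young animals without overlap (-0.54, SE 0.17, adjusted p = 0.261). PEX2, a peroxin of the matrix protein import machinery, had 180 to 262 in middle-aged and 259 to 446 in young animals (-0.44, adjusted p = 0.308). ECI2, an enoyl-CoA isomerase, had 222 to 314 in middle-aged and 298 to 478 in young animals (-0.34, adjusted p = 0.387). In the other direction stood AMACR, the racemase of branched fatty acids, at 0.28 (adjusted p = 0.683), and CRAT, the carnitine acetyltransferase, at 0.19 (adjusted p = 0.744). Leaving out 1 animal moved AMACR to between 0.17 and 0.49, and CRAT to as low as 0.10. The list of fatty acid uptake and beta-oxidation, which is largely mitochondrial, had 13 of 26 members above 0 and a median of 0.01.

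No gene passed on the higher side, where the 10 genes with the smallest p had adjusted p from 0.145 to 0.184. Of these 10 genes 4 were detected on all 12 arrays, and 6 had no overlap between the ages. Over all genes, 0.221% had no overlap on the higher side. These 10 were picked for a small p from the same values, so that count adds no support. NR1D1 (REV-ERB alpha), the nuclear receptor that represses the clock gene BMAL1, had 108 to 136 in middle-aged animals and 83.1 to 104 in young animals. It was detected on 6 middle-aged arrays, 0 young arrays and 0 old arrays, so it entered the test only through the age at which it was high, and its bound and p describe a gene chosen in that way. It was at least 1.19-fold higher in middle-aged muscle (adjusted p = 0.145). Among the 15 measured circadian clock genes, 5 were above 0 and 10 below, with a median of -0.11 in the Z scores and -0.04 after quantile normalization, -0.18 without young replicate 6 and -0.07 without middle-aged replicate 1. CSNK1E, a kinase that phosphorylates PER proteins, stood at -0.45 (adjusted p = 0.211), TEF, a clock output factor, at -0.40 (adjusted p = 0.277) and PER3 at -0.39 (adjusted p = 0.281).

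Among the higher genes with bright probes were LAPTM4B and LMBRD1, both membrane proteins of the lysosome. LAPTM4B had 2770 to 3772 in middle-aged animals (median 2999), against 1407 to 2329 in young animals (median 2150) with no overlap (0.63, SE 0.15, adjusted p = 0.147), and its second probe gave 0.49. LMBRD1, which exports cobalamin from lysosomes, had 2204 to 2841 in middle-aged and 1581 to 2259 in young animals, with overlap (0.43, SE 0.09, adjusted p = 0.145). Over 25 alternative settings the log2 fold change of LMBRD1 lay between 0.16 and 0.49, and between 0.38 and 0.49 when 1 animal was left out. GRB14, an adaptor that inhibits the insulin receptor, had 112 to 179 in middle-aged and 62.3 to 106 in young animals (0.72, SE 0.16, adjusted p = 0.147), but its other detected probe gave -0.04. It was detected on 6 middle-aged arrays and on 1 young array. CREB1, the cAMP response factor, had 11430 to 20190 in middle-aged animals and 9271 to 10800 in young animals (0.51, SE 0.13, adjusted p = 0.184), while its 3 other detected probes gave -0.08, 0.06 and 0.11. The values of GRB14 and CREB1 thus belong to 1 probe of each gene. DCTN4, a dynactin subunit, had 109 to 133 in middle-aged and 89.3 to 105 in young animals (0.31, adjusted p = 0.147, detected on 6 middle-aged arrays and 1 young array), and TEDDM1 had 115 to 156 in middle-aged and 79.6 to 122 in young animals (0.50, adjusted p = 0.145, detected on 6 middle-aged and 2 young arrays). With young signal near background on most arrays, the size of these differences is uncertain. APOBEC3C, a cytidine deaminase that restricts retroviruses, was detected on 5 middle-aged and 0 young arrays and was at least 1.16-fold higher (102 to 141 in middle-aged, 86.9 to 101 in young animals, adjusted p = 0.184). GRB14, DCTN4, TEDDM1 and APOBEC3C would not have entered the test without the middle-aged arrays, where they were high. Their differences and p describe genes chosen in that way.

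The 2 haptoglobin genes had higher means in middle-aged animals, with a wide spread. HPR, the haptoglobin-related protein, had 113 to 931 in middle-aged animals (median 323), against 83.4 to 118 in young animals (median 98.9), with a log2 fold change of 1.69 (SE 0.38, adjusted p = 0.145) and a median of 221 in old animals. It was detected on 6 middle-aged and 2 young arrays, so the size of this difference is uncertain. It passed without middle-aged replicate 1 (1.99, adjusted p = 0.0449). HP, haptoglobin, which binds free haemoglobin, had 97.8 to 290 in middle-aged animals and 61.4 to 89.0 in young animals. It was detected on 3 middle-aged and 0 young arrays, and was at least 1.24-fold higher (adjusted p = 0.298). HP would not have entered the test without the middle-aged arrays, so its bound and p describe a gene chosen in that way. HP and HPR are near-identical copies whose probes can share targets, so their separate levels are uncertain. IDO2, an enzyme of tryptophan breakdown, had 129 to 272 in middle-aged and 101 to 126 in young animals, with no overlap (0.53, adjusted p = 0.238). Of the 19 measured acute phase and cytokine response genes, 13 were above 0 and 6 below, 4 were higher and 0 lower at an unadjusted p under 0.05, beside 4.2% higher and 6.9% lower over all genes. HP and HPR were among these 4, so the count holds near-identical copies and a gene that the filter chose for its high middle-aged values. The median was 0.08 (0.12 after quantile normalization), 0.17 without young replicate 6, and 0.03 without young replicate 2 or 5. Erythrocyte markers lay on the same side, with 5 of 5 measured genes above 0 and a median of 0.81, or 0.40 without middle-aged replicate 6. Of the 5, 0 reached an unadjusted p under 0.05 (limma). They include the gene copies HBA1 and HBA2, whose probes are not independent measurements. HBB, the beta chain of haemoglobin, had 1193 to 7002 in middle-aged animals and 413 to 1483 in young animals (1.23, adjusted p = 0.483), or 0.86 without middle-aged replicate 6, and its old median was 15860. The part of blood in the levels of HP and HPR was not tested.

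Immediate early genes, the first transcription factors to be induced after a stimulus, were very high in some middle-aged animals. FOS had normalised intensities of 5786, 291, 3197, 489, 569 and 950 in middle-aged animals 1 to 6, and 133 to 377 in young animals (median 180). Middle-aged replicates 1 and 3 stood far above the rest, and the lowest middle-aged value lay within the young range. The log2 fold change of FOS was 2.43 (SE 0.81, adjusted p = 0.278), and 1.42 without middle-aged replicates 1 and 3. EGR1, a zinc finger factor of the same early wave, had 2604 and 2333 in these same 2 animals and 2920 in middle-aged replicate 6, against 253 to 621 in the young (1.59, SE 0.62, adjusted p = 0.354), or 0.96 without replicates 1 and 3. FOSB stood at 0.93 (adjusted p = 0.387), or 0.57 without middle-aged replicate 6, with detection on 5 middle-aged and 3 young arrays, and IER5 at 0.88 (adjusted p = 0.404), whereas IER3 stood at -0.50 (adjusted p = 0.246). Over the 24 measured genes of the list 18 were above 0 and 6 below, with a median of 0.12 (0.16 after quantile normalization) that was 0.005 without middle-aged replicates 1 and 3, 0.03 without middle-aged replicate 1 alone and 0.31 without young replicate 6.

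**Figure D4:**
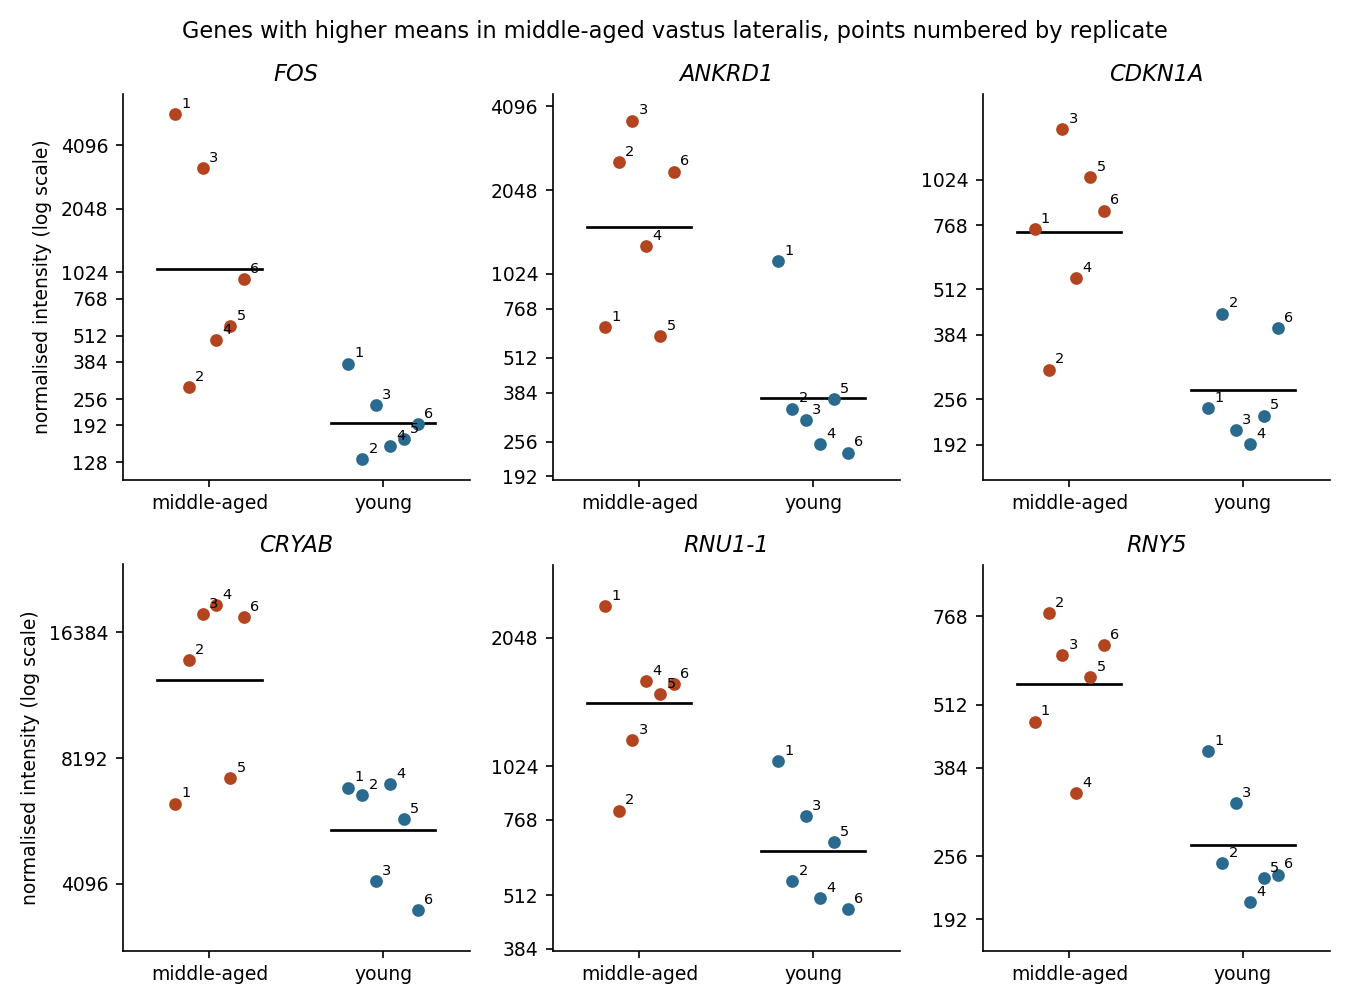
Normalised intensity (log axis) of FOS, ANKRD1, CDKN1A, CRYAB, RNU1-1 and RNY5 in each middle-aged (left) and young animal, numbered by replicate, with a line at the geometric mean. The median of middle-aged animals was above that of young animals in the 6 genes, the ages overlapped in each, and FOS reached 5786 in middle-aged replicate 1 against 291 in replicate 2.

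Genes of muscle stress were also higher on average. ANKRD1, a titin-associated ankyrin repeat protein induced by stretch and denervation, had 614 to 3638 in middle-aged animals (median 1834), against 234 to 1141 in young animals (median 321), where the highest value was that of young replicate 1 and the next was 364.8. The log2 fold change of ANKRD1 was 2.03 (SE 0.53, adjusted p = 0.195). CRYAB, the small heat shock protein alpha B-crystallin that binds desmin and titin, had 6377 to 19060 in middle-aged animals (median 15940), against 3542 to 7085 in young animals (median 6256), with 1.19 (SE 0.31, adjusted p = 0.185). ACTC1, the actin of heart and of regenerating muscle, stood at 1.68 (SE 0.48, adjusted p = 0.22) and MUSTN1, a small nuclear protein of the muscle and skeleton, at 0.89 (adjusted p = 0.22). None of these genes passed the threshold. The list of muscle stress and growth arrest genes was put together after the values were seen. It had 13 of 15 members above 0 and a median of 0.75 (0.79 after quantile normalization), which describes how it was chosen.

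The heat shock and chaperone list had 21 of 27 measured genes above 0, 6 higher and 0 lower at an unadjusted p under 0.05 (beside 4.2% and 6.9% over all genes), and a median of 0.18 (0.19 after quantile normalization) that stayed positive in all 15 settings. HSPB8, the partner of the co-chaperone BAG3, had 4410 to 9104 in middle-aged and 2950 to 5192 in young animals (0.65, adjusted p = 0.261). DNAJB6, a co-chaperone of the Z disc, stood at 0.52 (adjusted p = 0.211), with a second probe at 0.14, and STIP1, which links HSP70 with HSP90, at 0.50 (adjusted p = 0.394).

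Inhibitors of the cell cycle lay on both sides of 0. CDKN1A (p21), the inhibitor induced by p53 and in denervated muscle, had 309 to 1410 in middle-aged animals (median 794), 193 to 439 in young animals (median 236) and a median of 674 in old animals. Its log2 fold change was 1.44 (SE 0.38, adjusted p = 0.195), and 1 middle-aged value lay in the young range. CDKN2B (p15), a CDK4 and CDK6 inhibitor, had 276 to 812 in middle-aged and 177 to 255 in young animals with no overlap (0.71, SE 0.22, adjusted p = 0.251), and a second probe gave 0.24. Without middle-aged replicate 5, which had 812.2, its difference was 0.46. GADD45A, another growth arrest gene, was lower on average, with 306 to 1005 in middle-aged and 592 to 1702 in young animals (-1.03, SE 0.30, adjusted p = 0.22), and its second probe also gave -1.03. GADD45G stood at -0.99 (adjusted p = 0.409). Of the 16 measured CDK inhibitors and growth arrest genes 7 were above 0 and 9 below.

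Small RNAs of the spliceosome and the Y RNAs were higher on average in middle-aged muscle. RNU1-1, a copy of the U1 RNA that recognises the 5′ splice site, had 807 to 2429 in middle-aged animals (median 1552), 475 to 1052 in young animals (median 617) and a median of 617 in old animals. The log2 fold change was 1.16 (SE 0.29, adjusted p = 0.184). RNU1-3 stood at 1.38 (adjusted p = 0.185), RNVU1-18 at 1.28 (adjusted p = 0.198) and RNVU1-7 at 1.20 (adjusted p = 0.22), and since these U1 copies are near identical, their probes are not independent measurements. RNU4-1 stood at 0.81 (adjusted p = 0.261) and RNU4-2 at 0.88 (adjusted p = 0.22), while RNU6-1, the U6 RNA of the catalytic core, stood at 0.39 (adjusted p = 0.324). Over 25 alternative settings RNU6-1 lay between 0.07 and 0.48, and between 0.26 and 0.48 when 1 animal was left out. The list, made after the values were seen, had 10 of 10 measured U RNAs above 0, 8 of them at an unadjusted p under 0.05 (4.2% over all genes on that side), and a median of 0.85 (0.91 after quantile normalization).

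RNY5, a Y RNA that binds the Ro60 protein, had 342 to 779 in middle-aged animals (median 612), against 208 to 415 in young animals (median 242), with a log2 fold change of 1.06 (SE 0.26, adjusted p = 0.184). RNY1 stood at 0.83 (adjusted p = 0.278) and RNY4 at 0.86 (adjusted p = 0.381), which completes the 3 measured Y RNAs, a list also made after the values were seen. The small nucleolar and Cajal body RNAs had a median of 0.06, with 25 of 42 measured members above 0. Among them SNORA28 had 146 to 210 in middle-aged and 103 to 131 in young animals with no overlap (0.48, adjusted p = 0.198). RNA was labelled from an oligo-dT primer, and most U and Y RNAs carry no poly(A) tail.

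Genes of the extracellular matrix were lower on average, but much of this rested on 1 young animal. COL1A2, a chain of type I collagen chosen after its values were seen, had 334 to 1458 in middle-aged animals (median 837), against 822 to 6656 in young animals (median 2175), where 6656 was young replicate 6. Its log2 fold change was -1.42 (adjusted p = 0.345), and -1.07 without that animal. Its second probe gave -1.66. COL1A1, the other chain, stood at -1.14 (adjusted p = 0.324), and -0.77 without it. COL12A1 stood at -0.98 (adjusted p = 0.282) and COL5A2 at -0.91 (adjusted p = 0.296), both detected on 4 middle-aged and 6 young arrays. COL15A1, a basement membrane collagen of muscle and vessels, was detected on 0 middle-aged and 6 young arrays, and was at least 1.28-fold lower (76.4 to 97.3 in middle-aged, 112 to 185 in young animals, adjusted p = 0.238). COL15A1 would not have entered the test without the young arrays, so its bound and p describe a gene chosen in that way. The 25 measured fibroblast and matrix genes had 3 above 0 and 22 below and a median of -0.23, which was -0.04 without young replicate 6. The 7 measured smooth muscle and pericyte markers had 4 above 0 and 3 below. MYH11, the smooth muscle myosin, had 458 to 1408 in middle-aged and 109 to 722 in young animals (1.14, adjusted p = 0.246), and TAGLN had 804 to 2848 in middle-aged and 349 to 2216 in young animals (1.19, adjusted p = 0.266, second probe 0.91), or 1.57 without young replicate 6, which held the young maximum. SMTN lay at -0.17. The median of these markers was 0.02 and had the opposite sign in 5 of 15 settings, among them -0.04 without middle-aged replicate 1, while it was 0.20 without young replicate 6.

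The respiratory chain lists depended on the same young animal. The 27 measured nuclear complex I subunits had 23 above 0 and a median of 0.11 (0.08 after quantile normalization), which was -0.04 without young replicate 6. The 31 measured subunits of complexes II to V had 22 above 0 and a median of 0.13, which was 0.001 without it. For contractile genes, the 12 slow fibre genes had a median of 0.15 and the 15 fast fibre genes one of -0.08, and without young replicate 6 these were -0.07 and -0.21. Their signs turned in 5 and 2 of the 15 settings. The 60 ribosomal proteins had a median of 0.05 in the Z scores and -0.05 after quantile normalization, so their direction turned with the scaling, as did that of the 14 muscle fibre markers (0.10 and -0.05). CASQ2, the calsequestrin of slow fibres, had 277 to 945 in middle-aged animals (median 667), against 119 to 445 in young animals (median 277), with 1.15 (adjusted p = 0.265). The proteasome list kept its direction in the 15 settings, with 10 of 34 subunits above 0, 24 below and a median of -0.09, or -0.15 without young replicate 6.

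**Figure D5:**
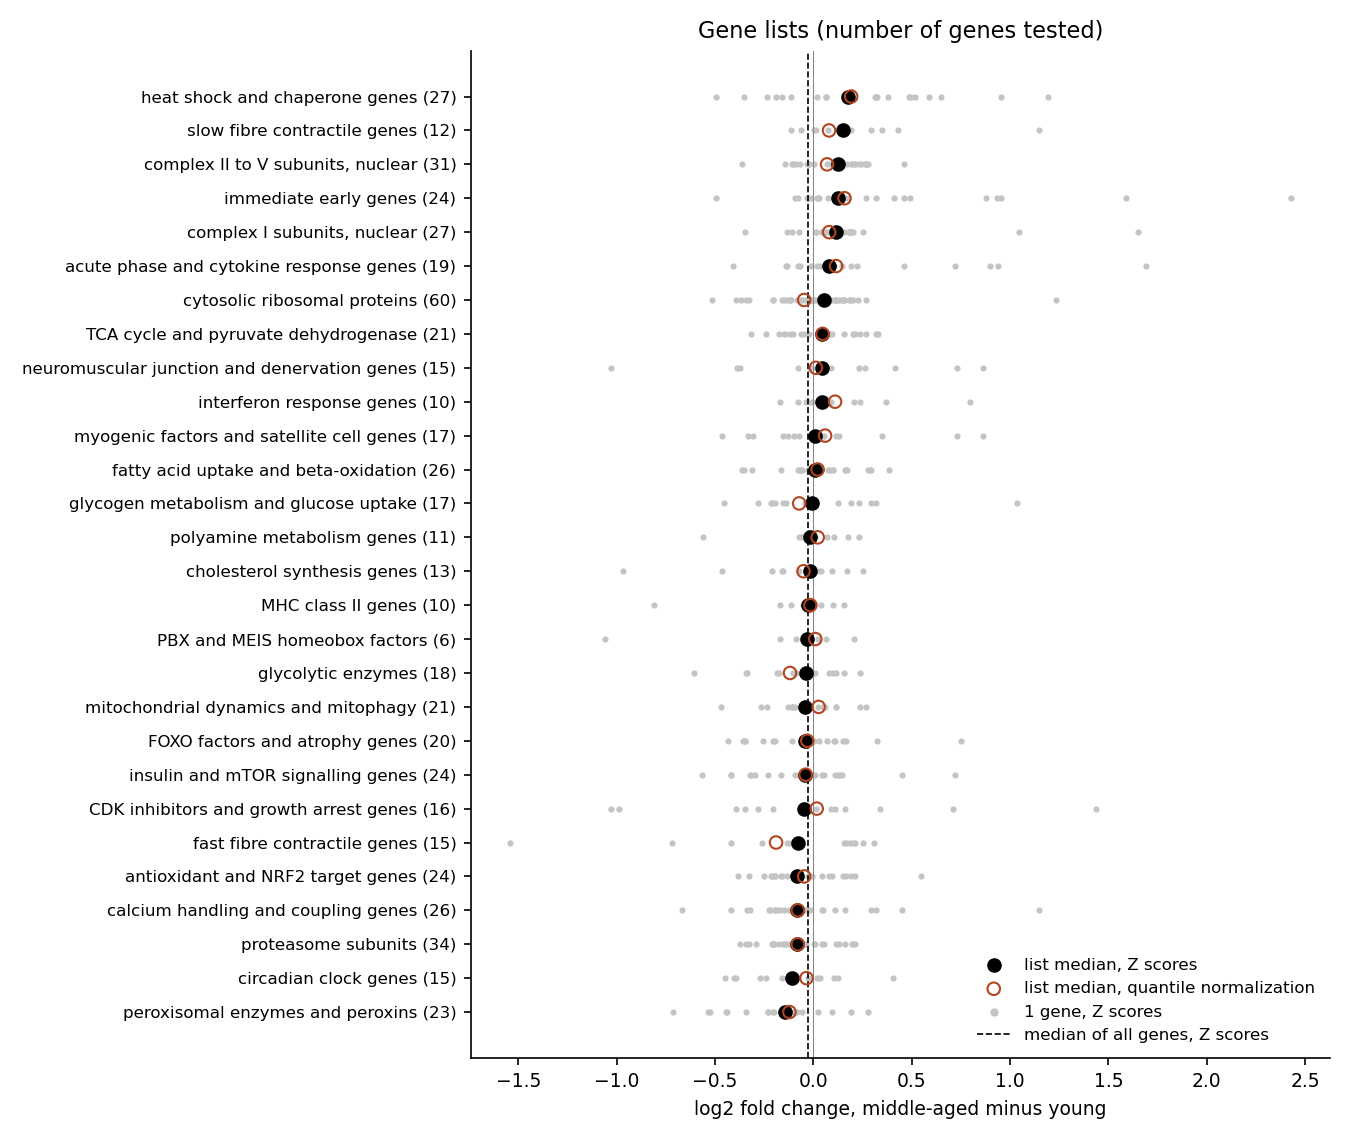
Median log2 fold change, middle-aged over young, of each program list with at least 5 measured genes, with filled points for Z scores and open points for quantile-normalised intensities, beside the median over all 8589 genes. Peroxisomal genes lay at -0.14 and heat shock genes at 0.18, and the lists carry no test.

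Markers of T cells, NK cells, neutrophils and nerve were mostly not detected. Of genes with a probe, 1 of 12 T cell and NK cell markers was measured, 1 of 8 neutrophil markers and 1 of 5 nerve and Schwann cell markers, while 3 of 4 B cell markers and 3 of 7 keratinocyte markers were. The 10 macrophage markers had 3 above 0 and 7 below, with a median of -0.08 that was 0.12 without young replicate 6. The mean macrophage marker level of young replicate 6 was 1.01, while middle-aged animals lay at -0.74 to 0.71 and the other young animals at -0.64 to 0.47. The part of these cells in the level of CX3CR1 was not tested.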

How the data were processed

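RNA was extracted by the authors with Trizol, copied from an oligo-dT primer and labelled with biotin-UTP, and they deposited probe intensities of each array read out in GenomeStudio (version 2011.1 in the submitters' processing notes). The detection p-value of each probe was deposited beside them. The authors also deposited Z scores, the natural log intensity centred and divided by the SD of its array, which differed from recomputed Z scores by at most 0.0184. Whether a background was subtracted, and the slide of each array, are not given in the sources used here, and 0 intensities lay at or below 0.

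To read as log2 differences, Z scores were scaled by the arrays' mean log2 SD. Of the probes, 30113 had 1 symbol, 8 several and 17202 none, by GEO's platform annotation. The brightest detected probe stood for its gene, and 1611 genes had more than 1. The 3 ages were fitted with limma 3.58.1 in R 4.3.3, with Benjamini-Hochberg adjustment. Array measures were compared by exact permutation of animals (scipy 1.17.1). In simulated data with 200 of 8589 genes changed, the fit recovered 55.2% of genes changed by 0.5 log2 units, 89.6% by 1 and 100% by 2, with 7 false calls. The adjusted threshold is stricter where fewer genes change, so these shares do not carry over to the real data. There 2 genes were called, and FOS at 2.43 and ANKRD1 at 2.03 log2 units were not.

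The named genes were those called by either normalization, the 10 with the smallest p in each direction, the 5 of largest change without overlap in each direction, and up to 4 and 2 per list in and against its direction, given here in part. The members and lists were chosen with earlier results of these data known. Alternatives were quantile normalization, neqc, other filters and probe choices, array weights, fewer arrays, the replicate number as a block, the methods' t-test and leaving out each animal. The array number limits precision. No probe or promoter sequence was used here.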

Additional observations from a re-analysis of the deposited data

Results flagged for a closer look

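A value was set aside for a closer look when the highest or lowest of the 6 animals of an age lay so far from its neighbour that the gap over the range exceeded Dixon's 95% critical value for 6 samples. Of 160 sets of 6 values, 16 met this, and chance gives about 1 in 20. The values are given without an explanation.

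Among middle-aged animals, HP was 289.5 in replicate 4 with the next at 127.0, CDKN2B was 812.2 in replicate 5 with the next at 305.2, and HBB was 7002 in replicate 6 with the next at 2116. RNU4-2 was lowest in replicate 2, at 219.6 with the next at 450.9. ACOX2 was lowest in replicate 6, at 230.1 with the next at 298.3. Replicate 6 also had the narrowest array, with an SD of the natural log intensity of 0.7108 against 0.7893 for the next.

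Among young animals, replicate 1 held the highest value of MPP3 (805.2, next 310.7), IER5 (424.7, next 176.1), ANKRD1 (1141, next 364.8), RNU4-1 (270.1, next 133.3) and RNU4-2 (517.0, next 246.6). Replicate 6 held the highest COL5A2 (632.0, next 264.4) and TAGLN (2216, next 567.1) and the lowest RNU6-1 (2461, next 3250). ACTC1 was 544.9 in replicate 2 with the next at 166.3, and PEX2 was 445.5 in replicate 4 with the next at 314.9.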

How the results depend on the processing

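The count of genes called lower was 2 in the Z scores. It was 1 after quantile normalization, 10 with the 12 arrays of the 2 ages alone, 22 with array weights, 0 with the replicate number as a block, 1 without middle-aged replicates 1 and 3 together, and 1 to 2 when each animal was left out in turn. The count called higher was 0, and became 7 with array weights and 0 to 1 when each animal was left out (HPR, without middle-aged replicate 1). The methods' t-test called 136 genes higher and 269 lower at the study's thresholds, and 0 higher and 7 lower after Benjamini-Hochberg adjustment. In the quantile-normalised fit, where 1 gene was lower and 0 higher, the count of lower genes was 2 with the 15 arrays, 0 with the replicate block and 0 to 2 when each animal was left out, and that of higher genes 0 to 1 (HPR without middle-aged replicate 1, IRX3 without replicate 2). The 15 arrays exclude young replicate 6 and old replicates 1 and 2, and were chosen with the values known. The cause of these differences was not tested.

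PECR was called in 24 of 25 alternatives and PBX3 in 13 of 25. The exception for PECR was the replicate block (adjusted p = 0.109), under which PBX3 had an adjusted p of 0.0945. The replicate numbers share no stated animal or batch, and same-numbered animals deviated with correlations of -0.259 to 0.133. Only for number 6 was the same-numbered young animal the best match of the middle-aged one. Whether the numbers share a processing batch was not tested, as the slides are not given. With quantile normalization, PECR was called in 4 of the 12 fits that left out an animal and PBX3 in 1. The 77 genes with settings computed kept their direction in all of them, and 19 of 44 lists did. These genes were named mostly for a small p or a large difference in the same values, so their kept direction adds no support. Their size could come near 0, with lowest values of 0.07 for RNU6-1, 0.08 for CRAT and 0.09 for CREB1. The difference in array spread was -0.0564 to -0.0331 when each animal was left out. Of the 20 genes with the smallest p, 10 were detected on all 12 arrays, and for the others signal near background limits the difference that can be measured.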

Other observations

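A few genes not named above had a pattern of their own. Among them, NDUFC1 and MYH4 are members of the complex I and fast fibre lists given above. NDUFC1, a small subunit of complex I, was 344 to 360 in 4 middle-aged animals and at 56.6 and 66.9 in the other 2, against 55.4 to 73.1 in young animals. It was detected on 4 middle-aged and 0 young arrays, and was at least 1.94-fold higher in middle-aged muscle (adjusted p = 0.277). NDUFC1 would not have entered the test without the middle-aged arrays, so its bound and p describe a gene chosen in that way. MYH4, the fast IIb myosin, ranged from 433 to 2618 in middle-aged animals and from 291 to 20510 in young animals (-1.54, adjusted p = 0.593), or -1.01 without young replicate 2. PPP1R3C, which targets protein phosphatase 1 to glycogen, had 1979 to 2795 in middle-aged and 389 to 2235 in young animals (1.03, adjusted p = 0.354), and SQSTM1 (p62), the autophagy receptor, had 2842 to 5936 in middle-aged and 930 to 4003 in young animals (0.75, adjusted p = 0.345), or 0.46 without young replicate 3.

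Of genes of antigen presentation, PSME1, PSME2 and 1 probe of CD74 had lower means in middle-aged animals, and none of them passed. CD74, the invariant chain of MHC class II, had 75.3 to 453 in middle-aged and 224 to 524 in young animals (-0.81, adjusted p = 0.387), but its second detected probe gave 0.20. PSME1 and PSME2, the subunits of the interferon-inducible proteasome activator, stood at -0.33 (adjusted p = 0.387) and -0.37 (adjusted p = 0.324). The 10 measured MHC class II genes had 3 above 0 and 7 below and a median of -0.03, which was 0.12 without young replicate 6.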
